A study of Mus musculus and Acomys cahirinus with 16 samples.

Results

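Mouse skin treated with DMBA/TPA was compared with untreated mouse skin, all groups taken from the sample labels, with 4 treated and 4 untreated samples out of the 16 samples of a series that also holds spiny mouse skin. Every sample is whole skin of Mus musculus, read as polyadenylated RNA. Samples of the control group are labelled untreated, and treated samples as receiving both agents. The labels name no strain, sex, age, body site, dose, schedule or time of sampling, and do not say whether treated skin held papillomas, so the length and stage of the treatment are not known here. Groups follow these labels, since the text deposited on the design speaks of fibroblasts and radiation. Because the labels do not call the replicates separate animals, the p-values measure the spread between these samples, which may be technical.

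DMBA (dimethylbenzanthracene) is a polycyclic hydrocarbon that skin cells oxidise to DNA-damaging products, and in mouse skin it typically mutates Hras. TPA (a phorbol ester, 12-O-tetradecanoylphorbol-13-acetate) stands in for diacylglycerol and activates protein kinase C, which drives AP-1 transcription factors, release of epidermal growth factor (EGF) receptor ligands and thickening of the epidermis. Initiation by DMBA followed by promotion with TPA is the classical multistage protocol that yields skin papillomas.

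All 8 samples carried skin markers at high levels. The basal keratin Krt14 lay between 1358.8 and 2696.1 CPM (counts scaled to library size with TMM factors) in untreated and between 7476.6 and 10979.4 CPM in treated samples, and the suprabasal keratin Krt10 between 1421.6 and 4458.3 CPM over all 8. Total counts ran from 19608787 to 30198281 a sample. By these totals, without TMM factors, 3 counts, taken as the smallest readable level, were worth 0.0993 to 0.153 CPM. Untreated replicates 1 and 2 stood apart from untreated replicates 3 and 4, replicate 1 in few genes and replicate 2 more broadly. In untreated replicate 1, 37 genes were at least 5 times above the other untreated samples, led by liver genes: Alb, the plasma protein albumin, stood at 395.6 CPM against 1.4, 3 and 3.42 CPM in the others. In untreated replicate 2, 115 genes stood that far above the others, led by the hair follicle genes Tchh, Krt71 and Krt25, and 43 stood as far below, led by the adipocyte gene Cfd. Untreated replicates 3 and 4 and the treated samples had between 0 and 3 such genes each way. Untreated replicate 2 also differed by gene length. Relative to the mean of untreated replicates 3 and 4, its median log2 CPM difference was -0.56 over the 3042 shortest protein-coding genes and 0.26 over the 3039 longest, where untreated replicate 1 had 0.02 and -0.02. Each result was therefore also computed without untreated replicates 1 and 2, leaving untreated replicates 3 and 4 against the 4 treated samples.

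**Figure D1:**
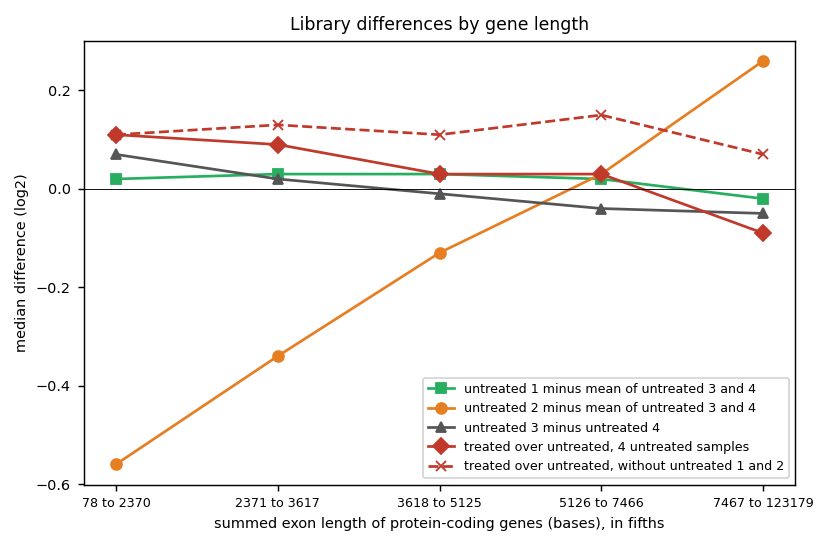
Median log2 difference of protein-coding genes (vertical axis) in 5 classes of summed exon length in bases (horizontal axis). Untreated replicate 2 runs from -0.56 in the shortest class to 0.26 in the longest against untreated replicates 3 and 4, while untreated replicate 1 stays between -0.02 and 0.03, and treated over untreated moves from 0.11 to -0.09 with all 4 untreated samples and stays between 0.07 and 0.15 without replicates 1 and 2.

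Of 19740 genes with enough counts, 12085 passed an adjusted p under 0.05 in edgeR's quasi-likelihood test, which is 61.2% of all genes tested, and such genes are called changed below. Of them 5121 were higher in treated skin (25.9% of genes tested) and 6964 lower (35.3%). Called genes that changed at least 2-fold were 9.81% of genes tested on the higher side and 24.3% on the lower side, and in 58.6% of genes the treated and untreated samples did not overlap. The median log2 fold change over all genes tested was -0.15. Without untreated replicates 1 and 2, 13315 of 20609 genes were called (64.6%), 6424 higher (31.2%) and 6891 lower (33.4%). Of the 12085 calls, 11094 (91.8%) were made again in the same direction, 991 were lost and 0 turned. With so large a share of genes called, a list of genes is described below by its counts and its median beside these backgrounds, and no list was tested as a list. The RNA is from whole tissue, in which fewer cells of a type and less RNA per cell cannot be told apart. Other scalings moved the median log2 fold change of all genes, to -0.35 (upper-quartile factors), -0.38 (library size alone) and -0.05 (DESeq2 size factors). The share of calls that were higher, 42.4% with TMM factors, was 30.5%, 28.6% and 48.4% in these fits, so small changes depend on the scaling.

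**Figure D2:**
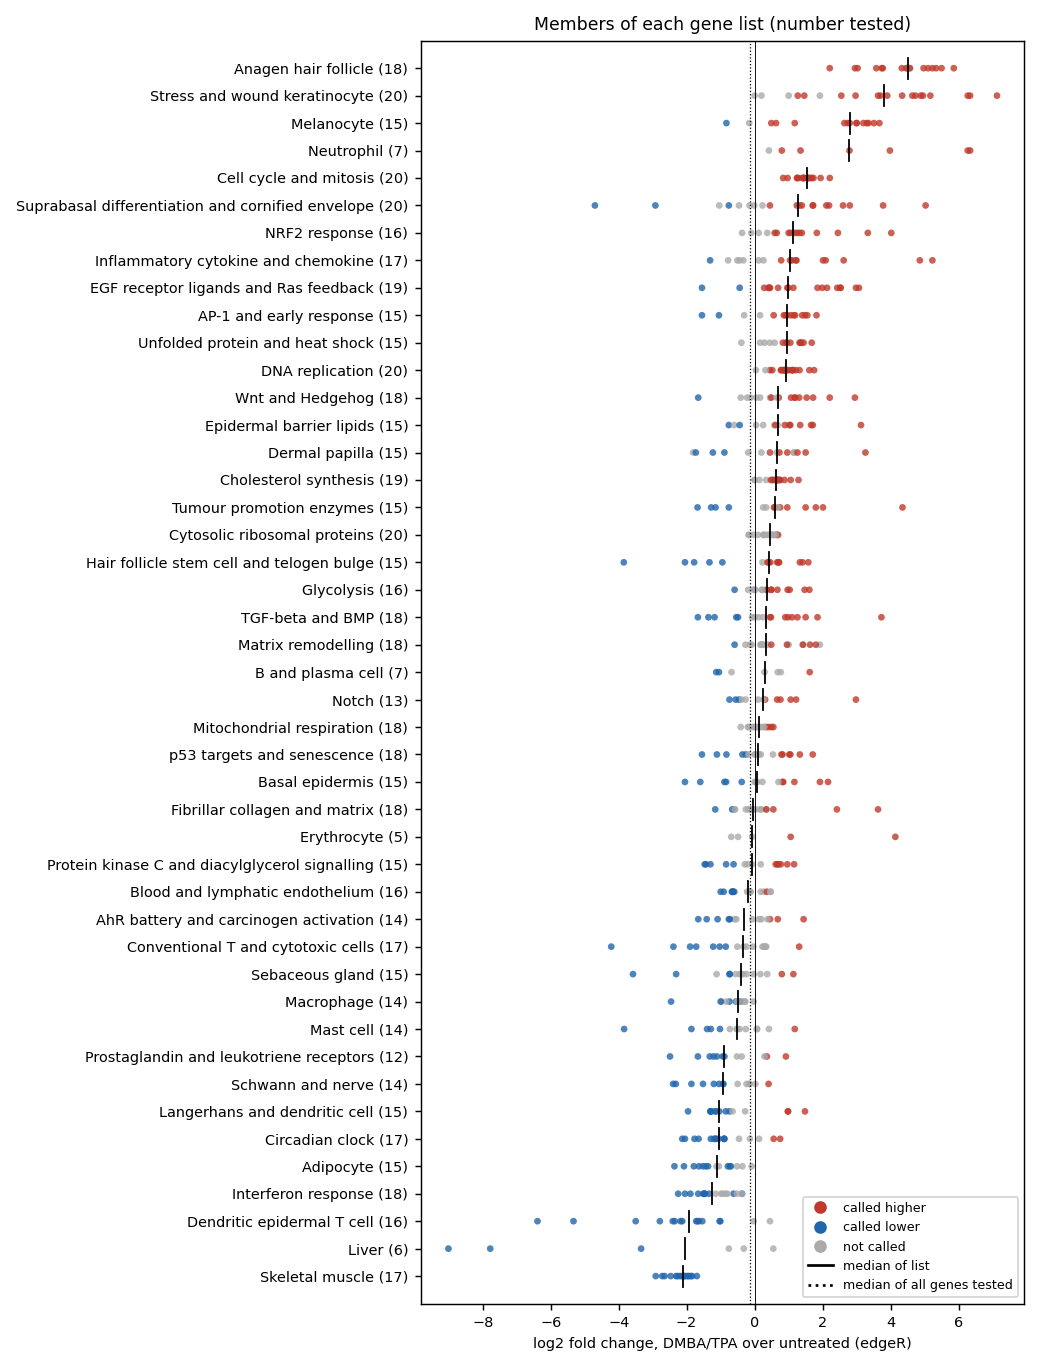
Log2 fold change of treated over untreated skin (horizontal axis, edgeR) for each tested member of 45 gene lists (rows, number tested in brackets, ordered by median). Red points were called higher, blue lower and grey not called, black bars are list medians, and the dotted line is the median of all genes at -0.15, with the anagen hair list highest at 4.50 and the skeletal muscle list lowest at -2.10.

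Genes that keratinocytes use in wounded, thickened epidermis mostly rose. Of the 20 listed stress and wound genes, all tested, 16 rose and 0 fell, with a median log2 fold change of 3.80, against 61.2% called and a median of -0.15 over all genes. Without untreated replicates 1 and 2, 15 rose and the median was 3.69, below the 10.14 that hair follicle genes then reached. Of the 15 largest rises among all tested genes that passed the filters for naming, 6 were of the Sprr2 family on chromosome 3. Products of this family are cross-linked into the cornified envelope, the protein shell of dead surface keratinocytes. Sprr2d (ENSMUSG00000042212, chromosome 3, 92246447 to 92248180, plus strand, GRCm39) read 1.51, 0.132, 1.61 and 3.14 CPM in untreated replicates 1 to 4 and 210.0, 181.8, 291.4 and 211.2 CPM in treated ones. Its log2 fold change was 7.13 (SE 0.63, edgeR adjusted p 2.83e-05), and 6.68 without untreated replicates 1 and 2. Sprr2i read between 0.11 and 0.228 CPM in untreated and between 11.1 and 23.5 CPM in treated skin, a log2 fold change of 6.82. Its untreated levels were near 3 counts, so its fitted size depends on the prior count. Genes named for the largest rises had to have groups that do not overlap, so the separation of both genes was fixed by the choice. Sprr2e, Sprr2f, Sprr2a1 and Sprr2a2 rose by log2 fold changes of 6.52, 5.75, 7.22 and 6.77. Within the treated group Sprr2a1 spread more widely than these neighbours, from 20.1 to 141.2 CPM. Members of this family resemble each other closely and reads mapping to several copies were not counted, so the split between copies is uncertain.

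The stretches upstream of these genes are shown because TPA acts on AP-1, whose best known binding letters, TGAGTCA, are named the TPA response element. They are the bases from 250 to 131 before the start of transcription, read 5′ to 3′ along the gene from RefSeq sequences of build GRCm38.p6, all on the plus strand, with TGAGTCA in capitals.
Sprr2d, chr3:92338890-92339009: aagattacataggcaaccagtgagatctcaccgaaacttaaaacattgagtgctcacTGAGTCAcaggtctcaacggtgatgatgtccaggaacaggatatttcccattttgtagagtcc
Sprr2e, chr3:92351893-92352012: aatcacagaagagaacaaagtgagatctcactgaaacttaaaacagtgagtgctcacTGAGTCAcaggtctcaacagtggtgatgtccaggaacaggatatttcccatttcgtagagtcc
Sprr2i, chr3:92407741-92407860: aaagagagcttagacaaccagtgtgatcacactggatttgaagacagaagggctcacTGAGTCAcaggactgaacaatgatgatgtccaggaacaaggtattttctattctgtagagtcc
Sprr2f, chr3:92364937-92365056: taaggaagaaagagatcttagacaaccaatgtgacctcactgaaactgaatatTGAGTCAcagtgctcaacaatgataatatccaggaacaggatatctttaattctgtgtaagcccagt
Sprr2a1, chr3:92215585-92215704: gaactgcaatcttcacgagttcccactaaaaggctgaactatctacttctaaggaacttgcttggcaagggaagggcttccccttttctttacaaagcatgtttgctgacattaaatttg
In Sprr2d, Sprr2e and Sprr2i the motif begins 193 bases before the start, and in Sprr2f 197 bases before it. The windows of Sprr2a1 and Sprr2a2 do not hold these letters, and their printed stretches are the same. Of the 14 of 15 genes with the largest rises that have a promoter sequence, 5 hold the motif on either strand in the 250 bases before the start, the fifth being Prr9. The other holders are the neighbouring Sprr2 genes above, whose stretches resemble each other around the motif, so they are not separate cases. Over genes, TGAGTCA was found in 3.95% of 16067 such windows of 12656 tested genes, in 3.77% of windows of genes called higher, in 4.46% of windows of genes called lower, and in 6.08% of windows of genes called higher with a log2 fold change of at least 1. Among all 32851 windows of the table it was in 4.46%. No share was counted for genes called lower by at least 1. Other motifs were searched the same way. TTTCCCGC of E2F factors was in 1.64% of windows of genes called higher, 0.994% for genes called lower, 1.44% for all genes tested and 1.19% for genes called higher by at least 1. TTTGGCGC, also of E2F factors, was in 0.907%, 0.406%, 0.666% and 1.13% in that order, and TGACGTCA in 2.7%, 1.7%, 2.23% and 2.38%. The interferon factor motif (GAAA, any 2 letters, GAAA) was in 2.3%, 3.16%, 2.69% and 2.19%, and AACCNGGTT in 0.295%, 0.122%, 0.255% and 0.376%. These are counts of letters and not of binding.

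Other wound-state genes rose with them. The alarmin subunits S100a8 and S100a9, made by stressed keratinocytes and by neutrophils, stood at 1.23 to 18.4 and 1.45 to 10.2 CPM in untreated and at 437.5 to 911.3 and 376.6 to 812.2 CPM in treated skin, log2 fold changes of 6.27 and 6.34. Krt6b and Krt16, keratins of wounded and thickened epidermis, rose by 5.17 (SE 0.97) and 4.95 (SE 0.73). Krt16 was at 133.7, 13.9, 80.4 and 223.2 CPM in untreated samples and at 4203.5, 3459.3, 3734.4 and 2525.2 CPM in treated ones, so that untreated replicate 2 was the lowest and no sample overlapped. The gap junction genes Gjb2 and Gjb6 rose by 4.73 and 3.90, and the cytokine gene Il36a by 3.70. Serpinb3a, a protease inhibitor with close copies, the kallikrein proteases Klk13 and Klk14 and the membrane protease Tmprss11b rose by 7.95, 6.54, 7.44 and 6.52. Of these, Klk14 rested on untreated levels at or below 3 counts in 3 of 4 samples, and its fitted size depends on the prior count. Itga5, Plaur, Mmp9 and Mmp13 were the 4 listed members not called. Mmp13, a collagenase, was at 22.1, 23.6 and 25 CPM in treated replicates 1 to 3 and at 133 CPM in treated replicate 4, with a log2 fold change of 1.92 (edgeR adjusted p 0.0839).

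Basal and suprabasal genes moved in both directions. Of 15 basal genes 5 rose and 5 fell, with a median of 0.08, which turned to -0.12 for upper-quartile factors and -0.16 for library size alone. Krt14 rose by 2.16 (SE 0.27, edgeR adjusted p 0.00018), Krt5, its partner, by 0.82, and the adhesion gene Cdh3 by 1.92. Krt15, a keratin of quiescent basal and bulge cells, fell by 2.05. Krt15 was between 881.6 and 1281.5 CPM in untreated and between 242.5 and 327.7 CPM in treated skin, without overlap. Dst, Col17a1, Lamb3 and Dlk2 also fell, the first 3 of which code for parts of the hemidesmosome or its anchorage. Lamb3, at -0.38, was not called without untreated replicates 1 and 2.

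Of 20 genes of suprabasal differentiation 12 rose and 3 fell, with a median of 1.28, and 6 fell without untreated replicate 2, alone or with replicate 1. Rptn, a cornified envelope protein, rose by 5.03 from 11.2 to 50.9 CPM in untreated to between 811 and 1403.2 CPM in treated skin. Tgm3 and Tgm1, transglutaminases that cross-link the envelope, rose by 3.78 and 2.11, Flg, the filament-aggregating protein filaggrin, by 2.80, Casp14 by 2.60 and Krt1 by 2.19. Against them Krt77 fell by 4.70, Flg2 by 2.92 and Loricrin by 0.76. Krt77, a keratin of the sweat duct and interfollicular epidermis, read 5059.5, 1312.2, 4381.1 and 6248.2 CPM in untreated and 428.2, 106.9, 10.9 and 106.6 CPM in treated samples (SE 0.99, edgeR adjusted p 0.00308). Krt77 was named among the largest falls, which had to have groups that do not overlap. Both groups held a low sample, untreated replicate 2 and treated replicate 3. Krt10 did not follow its partner Krt1, with a log2 fold change of -0.012 (SE 0.34). Lce1m, a late envelope gene, fell by 3.62. Loricrin lay near the threshold, with an edgeR adjusted p of 0.0498 and overlapping groups, and 0.00858 without untreated replicates 1 and 2.

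Genes for the lipids of the epidermal barrier rose for 8 of 15 members and fell for 2, with a median of 0.68. Degs2, which makes phytoceramides, rose from between 1.89 and 5.33 CPM to between 33.5 and 38.5 CPM, a log2 fold change of 3.13. Cers3 and Pnpla1, which build the ultra-long acylceramides, rose by 1.71 and 1.66 and the glucosylceramide synthase gene Ugcg by 1.34. Aloxe3 and Fa2h fell by 0.76 and 0.44, and Fa2h was not called without untreated replicates 1 and 2.

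The entry points of both agents showed mixed changes. Of 14 tested genes of the aryl hydrocarbon receptor battery, which senses and oxidises polycyclic hydrocarbons, 3 rose and 5 fell, near the background share of 61.2%, with a median of -0.30. The receptor gene Ahr fell by 1.09, from 146.3, 93, 136.1 and 145 CPM to 68.6, 61.4, 55.6 and 59.5 CPM (edgeR adjusted p 0.000353). Its repressor Ahrr fell by 1.41 and the aldehyde dehydrogenase gene Aldh3a1 by 1.66, while Tiparp and Cyp1b1, 2 further receptor targets, rose by 0.68 and 0.45. Cyp1a1, the most used marker of receptor activity, was at 4.78 to 17.1 CPM in untreated and 7.86 to 9.35 CPM in treated skin and was not called, with a log2 fold change of -0.59 (edgeR adjusted p 0.147, and -0.75 with 0.000881 without untreated replicates 1 and 2).

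Of 15 genes of protein kinase C and diacylglycerol signalling 6 rose and 5 fell, with a median of -0.08 that became 0.24 without untreated replicates 1 and 2. The kinase genes Prkci, Prkch and Prkca rose by 0.96, 0.77 and 0.67, and the phospholipase gene Plcd1 by 1.16. Prkcb, the isoform of B cells and myeloid cells, fell by 1.47, Plce1 by 1.30, and Rasgrp3 and Rasgrp1, diacylglycerol-regulated activators of Ras, by 1.43 and 0.84. Prkch was at 75 to 103.1 CPM in untreated and 144.7 to 161.5 CPM in treated skin, without overlap.

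EGF receptor ligands and Ras feedback genes formed a list that changed almost throughout, with 16 of 19 rising and 2 falling and a median of 0.99 (1.12 without untreated replicates 1 and 2). Among the ligands, Hbegf was at 6.51, 5.13, 5.9 and 11.6 CPM in untreated and 60.3, 53.6, 57.4 and 73.9 CPM in treated samples. Its log2 fold change was 3.07 (SE 0.25, edgeR adjusted p 2.17e-05). Tgfa, the ligand first found in transformed cells, was at 34.9, 28.9, 33.5 and 42.7 CPM in untreated and 207.4, 178.5, 179.8 and 186.6 CPM in treated samples, a log2 fold change of 2.43 (SE 0.14). Areg and Epgn rose by 2.52 and 2.98, and in these 4 genes no treated sample overlapped an untreated one. Ereg was not called, at 0.40 (SE 0.40), and Btc fell by 1.55 (SE 0.41). Btc overlapped through untreated replicate 2, at 14.7 CPM against 65.8, 64.8 and 82.5 CPM in the others and 18.4 to 20.1 CPM in treated samples. The receptor genes Egfr, Erbb2 and Erbb3 rose by 0.44, 0.45 and 0.41, and none of the 3 was called when scaled by upper quartile or by library size alone.

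Downstream of the receptor, Hras rose by 0.69, and its call ended when scaled by upper quartile or by library size alone and also without treated replicate 3 or 4. Genes that ERK signalling induces rose too. Among them Dusp6, a phosphatase of ERK, rose from 37, 39, 42.3 and 41.9 CPM to 151.7, 148.8, 163.1 and 174.2 CPM (log2 fold change 1.99, SE 0.1), the related Dusp5 by 2.53, Phlda1 by 2.13, the transcription factor gene Etv4 by 1.85 and the pathway inhibitor gene Spry4 by 1.14. Dusp6 had a narrow spread in both groups. Spry2, another inhibitor of this pathway, fell by 0.44 with overlapping groups (edgeR adjusted p 0.0249).

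**Figure D3:**
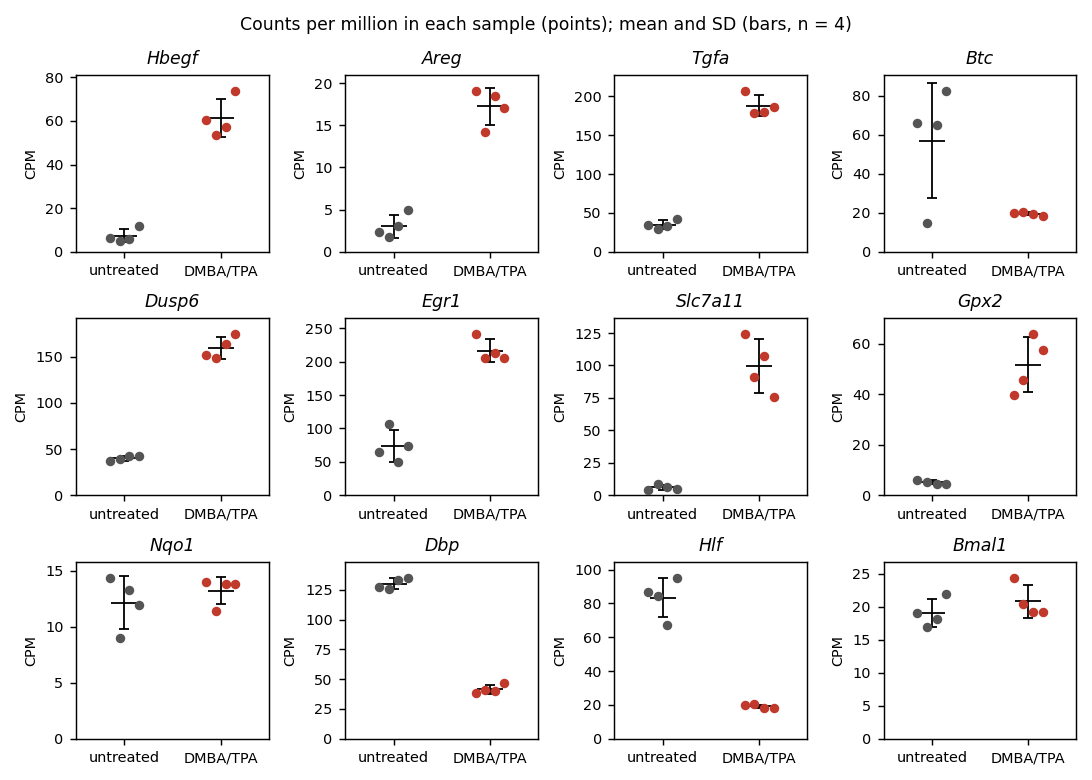
CPM of 12 genes in each untreated and DMBA/TPA-treated sample (points), with mean and SD (bars, n = 4). The EGF receptor ligands Hbegf, Areg and Tgfa, the feedback gene Dusp6, the early gene Egr1 and the NRF2 genes Slc7a11 and Gpx2 are higher in every treated sample, the clock output genes Dbp and Hlf lower in every treated sample, Btc overlaps through untreated replicate 2 at 14.7 CPM, and Nqo1 and Bmal1 overlap.

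AP-1 and early response genes rose for 11 of 15 members and fell for 2, with a median of 0.95 with and without untreated replicates 1 and 2. Egr1, an early growth response factor, was at 64.9, 106.6, 50.4 and 73.9 CPM in untreated and 241.2, 206.1, 212.9 and 205.4 CPM in treated skin, a rise of 1.55 on the log2 scale (SE 0.21, edgeR adjusted p 0.00028). The AP-1 subunits Junb, Fosl2, Jun and Jund rose by 1.48, 1.19, 0.91 and 0.56, and Fosl1 by 1.82 at a low level of 1.67 to 3.26 CPM in treated skin. Fos itself was not called, at 0.16 (SE 0.27). Fosb and Atf3 fell by 1.55 and 1.05, and Fosb fell by 0.75 without untreated replicates 1 and 2, since its highest values of 10.7 and 18 CPM were in those libraries.

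Enzymes long tied to promotion by phorbol esters rose for 8 of 15 members and fell for 4, with a median of 0.59. Odc1, the rate-limiting enzyme of polyamine synthesis, was at 70.2, 46.9, 76.1 and 65.3 CPM in untreated and 108, 99.3, 109.4 and 117.9 CPM in treated skin, a rise of 0.75 (SE 0.15, edgeR adjusted p 0.00212). Spermidine synthase, Srm, rose by 1.50 and spermine synthase, Sms, fell by 1.15, both without overlap. The lipoxygenase gene Alox8 rose by 4.35 (SE 0.68), from 1.99, 13.1, 1.25 and 2.46 CPM to between 81.8 and 108.1 CPM, and by 5.82 without untreated replicates 1 and 2. The lipoxygenase gene Alox12e fell by 1.68. Ptgs2, the inducible cyclooxygenase, was not called, at 0.34 (SE 0.34, 2.63 to 8.56 CPM in untreated and 6.44 to 11.6 CPM in treated skin), whereas its constitutive relative Ptgs1 fell by 1.28. Arg1 and the alarmin gene Il33 rose by 2.01 and 1.80. Among receptors and enzymes of prostaglandins and leukotrienes 2 of 12 rose and 7 fell, with a median of -0.91. Cysltr1, Ptgfr and Ptgir fell by 1.67, 1.32 and 1.21, and the leukotriene B4 receptor gene Ltb4r1 and the prostaglandin E2 receptor gene Ptger4 rose by 0.92 and 0.36.

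All 20 cell cycle and mitosis genes rose, between log2 fold changes of 0.84 and 2.21 with a median of 1.55 (1.61 without untreated replicates 1 and 2). Ccne1, the cyclin of entry into S phase, was at 2.2, 2.76, 2.09 and 3.33 CPM in untreated and 12.1, 11.8, 12.7 and 11.3 CPM in treated skin, a rise of 2.21 (SE 0.18, edgeR adjusted p 1.83e-05). The mitotic regulators Plk1 and Cdc20 rose by 1.94 and 1.73, and Ccnd1 rose least. In each of the 20 genes every treated sample was above every untreated one, while the groups did not overlap in 58.6% of all genes. Of 20 DNA replication genes 18 rose and 0 fell, with a median of 0.91. Rrm2, a subunit of ribonucleotide reductase, rose by 1.75, and Mcm5 and Mcm2 of the replicative helicase by 1.61 and 1.32. Pola1 and Rfc4 were not called, at 0.038 and 0.32.

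Defence against electrophiles and oxidants through NRF2, a factor that skin also uses to clear carcinogens, showed 12 of 16 genes rising and 0 falling, with a median of 1.12 (1.11 without untreated replicates 1 and 2). Slc7a11, the cystine carrier that feeds glutathione synthesis (ENSMUSG00000027737, chromosome 3, 49846975 to 50398063, minus strand, GRCm39), was at 4.27, 8.64, 6.59 and 5.06 CPM in untreated and 124.1, 91.4, 107 and 75.9 CPM in treated skin. It rose by 4.02 (SE 0.25, edgeR adjusted p 6.68e-06). Gpx2, a glutathione peroxidase, rose by 3.33 from between 4.56 and 6.19 CPM to between 39.8 and 63.8 CPM. Gsta4, G6pdx, Gclc and Gclm rose by 2.45, 1.83, 1.39 and 1.25, and the gene of the factor itself, Nfe2l2, by 0.65. Nqo1, often used to read this response, was not called at 0.12 (SE 0.16), with 8.99 to 14.4 CPM in untreated and 11.4 to 14 CPM in treated skin. Keap1, Prdx1 and Me1 were not called either, and Me1 was called lower, at -0.46, without untreated replicates 1 and 2.

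Of 15 genes of the unfolded protein and heat shock responses 10 rose and 0 fell, with a median of 0.94. The chaperone genes Hspa5, Calr and Hsph1 rose by 1.68, 1.44 and 1.37, and Ddit3, the death-linked arm of the response, was not called at -0.39. Of 19 cholesterol synthesis genes 15 rose and 0 fell, with a median of 0.64. Sqle and Mvd, enzymes of this pathway, rose by 1.06 and 0.88. Of 16 glycolysis genes 8 rose and 1, Aldoa, fell by 0.59. The rises were led by Eno1, Pgam1 and the glucose carrier gene Slc2a1 at 1.61, 1.47 and 1.03, and the list median was 0.36, and 0.11 to 0.45 under the other scalings. Aldoa is also abundant in skeletal muscle, whose genes fell, and the part of muscle in its fall was not tested.

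Nuclear genes of mitochondrial respiration were mostly not called, with 4 of 18 rising, 0 falling and a median of 0.12. With library size alone 0 rose and 4 fell, so no direction can be given. Atp5f1b, Cyc1 and Atp5f1a were the largest, at 0.55, 0.49 and 0.41. Cytosolic ribosomal protein genes had a median of 0.45, and 2 of 20 were called, Rpl6 at 0.69 and Rpl28 at 0.65. Untreated replicate 2 was low in them, and without untreated replicates 1 and 2, 11 of 20 rose, with a median of 0.36.

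p53 targets and senescence genes split into 6 that rose and 5 that fell of 18, a share called of 61.1% that is near the background, with a median of 0.11 that was -0.09 with upper-quartile factors. The falls numbered 3 without untreated replicate 1, alone or with replicate 2, and without treated replicate 2 or 4. Pmaip1, a mediator of p53-driven cell death, rose by 1.71, Sesn2 by 1.33, Aen by 1.05 and the cell cycle inhibitor gene Cdkn1a by 1.02, while Eda2r fell by 1.55, Ccng1 by 1.11 and Bbc3 by 0.83. Mdm2, which p53 induces and which restrains it, stayed at 56.3 to 69 CPM in untreated and 58.3 to 63.9 CPM in treated skin, with a log2 fold change of 0.0055 (SE 0.092).

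Genes of the growing hair follicle were the list with the highest median. Hair follicles cycle between growth (anagen) and rest (telogen), and the keratins of the hair shaft and inner root sheath are made only in growth. Of 18 anagen genes 15 rose and 0 fell, with a median log2 fold change of 4.50. Krt27, a keratin of the inner root sheath (ENSMUSG00000017588, chromosome 11, 99236391 to 99241930, minus strand, GRCm39), was at 0.448, 247.8, 5.53 and 0.41 CPM in untreated and 3478.1, 3743.4, 3615.2 and 3933.5 CPM in treated skin. The 3 other untreated samples were thus near 0 while untreated replicate 2 held an intermediate level, and all treated samples were high and alike. With all samples its log2 fold change was 5.86 (SE 1.89, edgeR adjusted p 0.0227), and 10.33 (edgeR adjusted p 7.11e-07) without untreated replicates 1 and 2. The same holds across the list: without them 18 of 18 rose, among them Krt31, Krt34 and Krt85, which had missed the threshold, and the median was 10.14. With untreated replicate 2 kept, fewer passed the test when another sample was left out, 7 without untreated replicate 3 and 8, 8, 9 and 8 without treated replicates 1 to 4, while the median stayed between 4.11 and 4.58 in these fits. Krt71 and Krt25 rose by 5.50 and 5.34, and both lost their calls in those 5 fits. The regulators of the hair matrix Hoxc13, Msx2, Dlx3 and Foxn1 rose by 3.77, 3.74, 3.58 and 3.03. Prr9, a gene near the cornified envelope cluster, was also intermediate in untreated replicate 2, at 77.1 CPM against 2.89 to 6.74 CPM in the other untreated and 1334.5 to 1742.8 CPM in treated samples. Summed over the list, untreated replicates 1 to 4 held 48.1, 3032.5, 71.7 and 50.3 CPM and treated ones 25040.7 to 26485.8 CPM. Whether treated and untreated skin was taken at the same point of the hair cycle is not stated, so treatment and hair cycle stage cannot be told apart.

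Pigment cell genes moved with the hair follicle. Of 15 melanocyte genes 13 rose and 1 fell, with a median of 2.80 (4.05 without untreated replicates 1 and 2). Slc45a2, Gpr143 and Tyrp1, which work in melanosomes, rose by 3.67, 3.51 and 3.35, and Tyr, the enzyme tyrosinase, by 3.30, from 0.407, 11.1, 0.916 and 0.456 CPM to between 24.9 and 41.8 CPM. Again untreated replicate 2 lay between the groups. Rab27a, which also acts in other secretory cells, fell by 0.83, and Sox10, a factor of all melanocytes and Schwann cells, was not called at -0.16 (SE 0.19).

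Among 15 genes of follicle stem cells and the resting bulge 9 rose and 5 fell. Fgf18, a signal of the resting follicle, fell by 3.85 (SE 0.24), from 8.75, 8.16, 7.88 and 8.52 CPM to 0.788, 0.352, 0.691 and 0.483 CPM. Untreated replicate 2 was no exception here, unlike in the anagen genes. Lgr6 and the bulge marker Cd34 fell by 1.78 and 1.33, while Wif1, Sox9 and Sfrp1 rose by 1.58, 1.41 and 1.33. In the dermal papilla list 6 of 15 rose and 3 fell, led by Corin at 3.26, Rspo3 at -1.73 and Inhba at 1.50. Its share called, 60%, is near the 61.2% of all genes. Sebaceous gland genes gave 2 rises and 4 falls of 15, with Scd3 and Awat2 falling by 3.58 and 2.31 and Elovl3 rising by 1.14. The share called in this list was 40%, against 61.2% of all genes. Without untreated replicates 1 and 2, 9 sebaceous genes fell.

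Signalling lists of the follicle and epidermis had shares called of 61.1% (Wnt and Hedgehog), 69.2% (Notch) and 77.8% (TGF-beta and BMP). Over all genes the share was 61.2%, so the first is at the background and Notch near it. Of 18 Wnt and Hedgehog genes 10 rose and 1 fell, with a median of 0.68. Shh, made by the growing matrix, rose by 2.95, the pathway's factors Gli2 and Gli1 by 1.31 and 1.07, the Wnt effector Lef1 by 2.21, and the ligand gene Wnt5a by 1.72. Gli1 overlapped through untreated replicate 2, at 29.4 CPM against 28.7 to 32.7 CPM in treated skin and 8.92 to 9.96 CPM in the other untreated samples. Wnt16 fell by 1.66 and Axin2, a general Wnt target, was not called at -0.22. Of 13 Notch genes 6 rose and 3 fell, with Heyl rising by 2.98, Nrarp by 1.22 and the ligand gene Jag1 by 1.06, and Dll4, Rbpj and Dll1 falling by 0.74, 0.56 and 0.46. Of 18 TGF-beta and BMP genes 9 rose and 5 fell. Bmp8a and the inhibitor gene Smad7 rose by 3.73 and 1.85, and Tgfb2 and the BMP antagonist genes Nog and Fst fell by 1.36, 1.67 and 1.18.

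Muscle genes fell throughout. All 17 tested of the 18 skeletal muscle genes fell, between log2 fold changes of -2.91 and -1.70, with a median of -2.10 (-1.77 without untreated replicates 1 and 2). Pvalb, a calcium buffer of fast fibres, was at 691.9, 423.7, 519.9 and 454.6 CPM in untreated and 70.8, 68.5, 71.5 and 67 CPM in treated skin, and Actn3 and Casq1 fell by 2.72 and 2.65. Ttn, the giant sarcomere protein, was at 11478.5, 52134.9, 16270.4 and 15227.6 CPM in untreated and 1430.8 to 1936.2 CPM in treated skin, with untreated replicate 2 highest. Summed over the list, muscle genes took 16981 to 24667.4 CPM in untreated and 3937.9 to 5408 CPM in treated skin. Whether the depth of the skin sample differed between the groups is not stated, and its part in the other results was not tested.

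**Figure D4:**
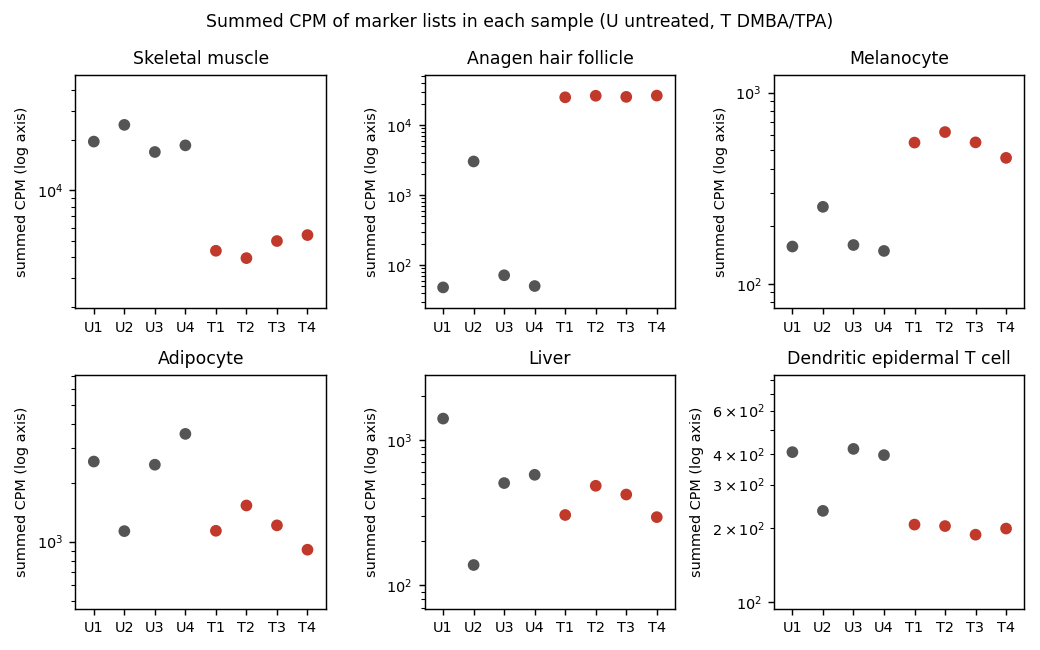
Summed CPM (log axis) of 6 marker lists in untreated samples U1 to U4 and DMBA/TPA-treated samples T1 to T4. Muscle genes are lower in all treated samples, hair genes are between 48.1 and 71.7 CPM in 3 untreated samples, at 3032.5 CPM in U2 and at 25040.7 CPM or more in treated samples, and liver genes peak at 1400.7 CPM in U1.

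Adipocyte and nerve genes were also called lower for most listed members. Of 15 adipocyte genes 10 fell and 0 rose, with a median of -1.12, where 35.3% of all genes were lower. The groups did not overlap in 2 of the 15, against 58.6% of all genes. The count of falls rests on single libraries, with 14 falling without untreated replicate 2, alone or with replicate 1, and 9 without replicate 1 alone. It was 5 with the replicate block, 6 without treated replicate 4, and 7 without untreated replicate 3 or 4 or treated replicate 1 or 3. Acvr1c, Retn and the complement factor gene Cfd fell by 2.36, 2.08 and 1.79, and Cfd lost its call when any 1 of these last 5 samples was left out. Adipoq, the hormone adiponectin, was at 118.2, 17.9, 107.8 and 135.9 CPM in untreated and 25.3, 46, 31.2 and 19 CPM in treated skin, so that the overlap came from untreated replicate 2. Of 14 Schwann cell and nerve genes 8 fell and 1, Erbb3, rose. Cdh19 and Mag, genes of Schwann cells and myelin, fell by 2.40 and 1.86. Liver genes had to be read without untreated replicate 1: of 17, 6 were tested and 3 fell. Apob and Alb, with log2 fold changes of -9.01 and -7.78, stood at -5.17 and -2.71 without untreated replicates 1 and 2, and Cps1 went from -0.32, not called, to a called 4.0. Limma-voom called neither Apob nor Alb, and treated levels of Apob were 0 to 0.149 CPM, near 3 counts, so that its fitted size depends on the prior count. Cps1 was at 38.6, 2.24, 0.806 and 0.273 CPM in untreated and 7.46 to 9.28 CPM in treated skin.

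**Figure D5:**
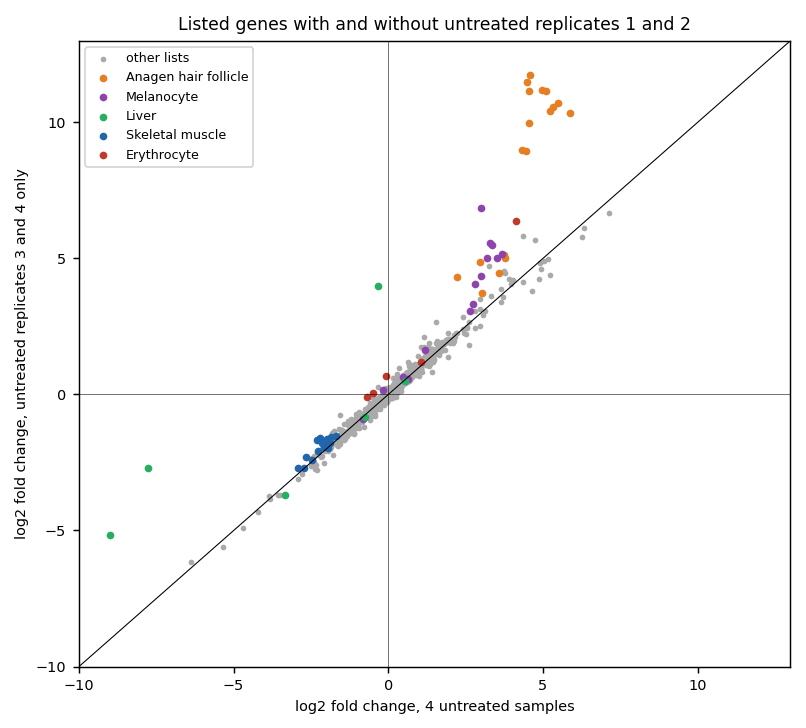
Log2 fold change of listed genes with all 4 untreated samples (horizontal axis) against that with untreated replicates 3 and 4 only (vertical axis), with the diagonal drawn. Anagen hair, melanocyte and a few liver and erythrocyte genes lie above the line, such as Krt27 at 5.86 and 10.33, while most other listed genes lie close to it.

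Stromal genes were largely not called. Of 18 fibrillar collagen and matrix genes 4 rose and 2 fell, 33.3% called against 61.2% of all genes, with a median of -0.05. The count of 4 was 2 without treated replicate 3 or 4, and 4 fell without untreated replicates 1 and 2. Tnc, a matrix protein of wounds and tumour stroma, was at 13, 44.5, 21.2 and 25.8 CPM in untreated and 318.2, 310.8, 306.5 and 356.3 CPM in treated skin, a rise of 3.63 (SE 0.34). Col12a1 rose by 2.42, and Dcn and Col1a2 fell by 1.16 and 0.66. Col1a1 was not called at -0.58 (SE 0.26). Of 18 matrix remodelling genes 5 rose and 1, Timp2, fell by 0.59, and the rises, 3 without treated replicate 4, included Adamts4, Timp1 and Adamts1 at 1.80, 1.63 and 1.42. In this list too 33.3% were called. Of 16 endothelial genes 1, Plvap, rose by 0.36 and 7 fell, led by Kdr, Cldn5 and Esam at -1.0, -0.91 and -0.67, and Pecam1 and Cdh5 were not called. The share of endothelial genes called was 50%, below the 61.2% of all genes. Their median was -0.19, near the -0.15 of all genes. Without untreated replicates 1 and 2, 4 rose, and 0 rose without untreated replicate 4 or treated replicate 3 or 4.

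Among the immune cell lists, that of dendritic epidermal T cells had the lowest median. Dendritic epidermal T cells are the γδ T cells of mouse epidermis, and Skint genes are keratinocyte genes, of which Skint1 is tied to their selection. Of 16 listed genes 14 fell and 0 rose, with a median of -1.93 (-2.06 without untreated replicates 1 and 2, where Thy1 was called higher). The receptor gene Trgc1 fell by 2.79 and Cd7 by 2.41, and Skint7 fell by 6.39, from 27.8, 35.9, 25.2 and 26.8 CPM to 0.578, 0.396, 0.0364 and 0.408 CPM. Skint5, Skint10 and Skint9, which are not in the list, fell by 5.58, 3.88 and 3.75, and these genes have similar copies. Prf1, the cytotoxic protein perforin, was at 6.6, 3.11, 6.01 and 7.02 CPM in untreated and 0.176 to 0.371 CPM in treated skin, a fall of 4.22. Prf1 belongs to the list of conventional T and cytotoxic cells. Of its 17 genes 7 fell and 1, Icos, rose by 1.31, with a median of -0.33, where 35.3% of all genes were lower. Cd4, Cd8a, Trac and Trbc2 of that list were not called, at 0.29, -0.24, 0.27 and 0.32.

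Langerhans and dendritic cell genes fell for 10 of 15 members and rose for 3, with a median of -1.04. Cd207, the langerin of Langerhans cells, was at 17.6, 8.16, 15.8 and 19.8 CPM in untreated and 4.41, 3.47, 4.36 and 3.56 CPM in treated skin, a fall of 1.96 (SE 0.26). The class II genes H2-Aa, H2-Ab1 and H2-Eb1 fell by 1.30, 1.29 and 1.30. Ccr7, the receptor of migrating dendritic cells, rose by 1.48 at up to 2.76 CPM, and Epcam and Mfge8, which keratinocytes and other cells express too, by 0.98 each. Of 14 tested macrophage genes 5 were lower and 0 higher, about the 35.3% called lower over all genes, and the count ran from 1 without treated replicate 2 or 3 to 8 without untreated replicate 2. It was 3 without untreated replicate 1 or treated replicate 4 and 2 without untreated replicate 3 or treated replicate 1. Those called included Retnla, Cx3cr1 and Adgre1 at -2.46, -1.0 and -0.74, and the complement genes C1qa to C1qc were not called. Of 14 tested mast cell genes 5 fell, also about the background share, and 1, Kit, rose by 1.18. Without untreated replicate 2, alone or with replicate 1, 9 fell. Mrgprb2, Hpgds and Mrgprx2 fell by 3.84, 1.86 and 1.40, whereas the protease genes Cma1, Mcpt4 and Cpa3 were not called at -0.44, -0.53 and -0.51. Kit is shared with melanocytes, whose genes rose, and their part in its rise was not tested. Mrgprb3, with close copies, fell by 5.47.

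Neutrophil genes rose for 6 of 7 tested, but 8 of the 15 listed did not have enough counts. The 6 include S100a8, S100a9 and Lcn2, which stressed keratinocytes make as well as neutrophils, so the count is not of neutrophils alone. Lcn2 rose by 3.98. Cxcr2 rose by 2.79, from 2.12, 0.219, 2.67 and 2.64 CPM to between 12.1 and 15.1 CPM. Among those too low to be tested were the defining granule genes Mpo, Elane, Camp, Ngp and Ltf and the marker Ly6g. Of 7 tested B and plasma cell genes Ighm and Ighd fell by 1.13 and 1.05 and Sdc1, which keratinocytes express as well, rose by 1.62.

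Of 17 tested inflammatory cytokine and chemokine genes 10 rose and 1 fell, with a median of 1.04. Il24 and Il19, related cytokines that act on keratinocytes, rose by 4.86 and 5.23 from levels near or below 3 counts to between 1.64 and 3.19 and between 1.08 and 5.72 CPM. Cxcl5 and Cxcl1, which draw neutrophils, rose by 2.62 and 2.01, Il36g by 2.09, and Tslp by 1.23 with overlapping groups. Il1b, Tnf and Ccl2 were not called, at 0.26, -0.33 and -0.51, and Ccl27a, a chemokine of resting keratinocytes, fell by 1.31. On the receptor side, Il20ra, a receptor subunit for this family, fell by 4.61, from 30.7, 28.1, 31.5 and 30.7 CPM to 1.68, 1.98, 0.946 and 0.446 CPM (SE 0.36, edgeR adjusted p 1.64e-05). Il31ra, a receptor subunit for the itch cytokine Il31, fell by 4.19. For Il24 and Il19 the groups did not overlap, while Il20ra was named on condition that they did not. The ligands were higher and Il20ra lower in treated skin.

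Of 18 interferon response genes 11 fell and 0 rose, with a median of -1.25. Without untreated replicate 2, alone or with replicate 1, 17 of 18 fell, with a median of -1.32 without both, and 7 fell without untreated replicate 3, treated replicate 1 or treated replicate 2. Mx1, Usp18 and Mx2 fell by 2.25, 2.05 and 1.89. Mx1 was at 10, 3.77, 7.84 and 7.97 CPM in untreated and 1.42, 1.1, 1.49 and 2.19 CPM in treated skin. Isg15 was not called at -0.99 (SE 0.57), with untreated replicate 2 at 2.02 CPM, below the treated values of 2.68 to 9.76 CPM, and the other untreated samples at 12.7 to 15.5 CPM, above them.

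Clock genes fell for 12 of 17 members and rose for 2, with a median of -1.06 (-0.90 without untreated replicates 1 and 2). The molecular clock is a feedback loop in which Clock and Bmal1 drive Per, Cry and Nr1d genes and output genes such as Dbp, Tef and Hlf. Dbp was at 127.2, 125.5, 133.1 and 135.2 CPM in untreated and 38.4, 40.9, 40 and 46.6 CPM in treated skin, a fall of 1.65 (SE 0.094, edgeR adjusted p 4.72e-06). Hlf fell by 2.13, Npas2 by 2.05, Per3 by 1.77, Nr1d1 by 1.29 and Cry2 by 1.20. Both groups were tight in Dbp and well apart. Cry1 and Bhlhe40 rose by 0.75 and 0.56, and the drivers Clock and Bmal1 were not called, at -0.14 and 0.13. The hour at which the samples were taken is not stated, so treatment and time of day cannot be told apart.

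Further large changes belonged to no list. Dab1, an adaptor of reelin signalling, fell by 6.35, Pkib, an inhibitor of protein kinase A, by 3.93, and Pik3c2g, a phosphoinositide kinase gene, by 3.93. Pkib was at 45.2, 28.2, 40.3 and 46.2 CPM in untreated and 3.89, 1.93, 2.4 and 2.3 CPM in treated skin. Spink12, a protease inhibitor gene, rose by 7.48 from at most 0.307 CPM to between 26.3 and 33.7 CPM. Untreated replicates 1 and 4 were at 0.0814 and 0 CPM in it, below 3 counts, so its fitted size depends on the prior count. Of 5 tested erythrocyte genes Slc4a1, an anion exchanger, rose by 4.14 and Bpgm by 1.06, while the globin gene Hbb-bs was not called at -0.072.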

How the data were processed

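RNA of 8 mouse skin samples was extracted with a commercial kit and made into stranded mRNA libraries, per the labels' protocols. The values are fragment counts per gene that the authors deposited as 1 mouse table, made with featureCounts 2.0.3 on the GRCm39 genome with Ensembl 108 annotation, per the file headers. Trim Galore and HISAT2 are named in the submitters' processing notes, without versions. Counting was run without a strand option, per the file headers, so genes that overlap on either strand cannot be told apart. Among the genes named here this holds for Klk14, Sprr2a1, Sprr2a2, Tgfa, Dusp5, Junb, Rptn, Tnc, Ttn, Gli1, Lef1, Shh, Dbp and Nr1d1, among others. The deposited gene length, a score in bases, served only to class genes by length. The table holds 56980 genes, of which 56236 were given symbols from GENCODE M39.

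Untreated columns carry a code other than the labels' library names and were assigned by species letter and number. The column of untreated replicate 2 alone bears a further suffix of unstated meaning. Groups are those of the labels. Replicate pairs differed beyond sampling noise (chi-square per degree of freedom from 11.35 to 165.8), so all 8 samples were kept. Pairs with untreated replicate 2 gave 132.9 to 165.8. Untreated replicate 1 gave 23.87 and 21.92 against untreated replicates 3 and 4, which gave 25.6 against each other.

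After filterByExpr and TMM scaling, edgeR 4.0.16 (R 4.3.3) was run with its quasi-likelihood test and Benjamini-Hochberg adjustment over all genes tested, and adjusted p-values are from this test unless another tool is named. The SE is the size of the log2 fold change divided by the root of F. Levels are TMM-scaled CPM. The code was tested on simulated data. The floor of 3 counts covers counting error alone, as no molecular identifiers are described. Alternatives were DESeq2 1.42.0, limma 3.58.1 with voom sample weights, other scalings and filters, the replicate block, and leaving out samples.

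The 45 lists hold 720 symbols. Lists and genes were chosen with earlier results of these data known, and counts are descriptions. From all genes tested, in lists or not, the text names the 15 largest rises and falls among protein-coding genes. These had to be called with and without untreated replicates 1 and 2, not overlap between groups and reach an average log2 CPM of 3. Gm and Rik symbols were left out. Of each list the text names the 3 largest called changes whose average log2 CPM reaches 1. It also names members that moved against the rest and members whose role is described. Genes setting a sample apart had to reach 10 CPM and differ at least 5 times from the other samples of its group, and those named are among the 10 with the highest CPM. Classes of gene length and of gene type were looked at after the data were seen. RefSeq promoter sequences are of GRCm38.p6, a build other than that of the counts, and gave 16067 windows for 12656 tested genes. Some listed genes are not reported here by name.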

Additional observations from a re-analysis of the deposited data

Results flagged for a closer look

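In 14 of 150 groups of 4 samples, made of 45 list scores (mean log2 CPM) and 30 named genes in each condition, the most extreme sample lay farther from its nearest neighbour, relative to the range of the group, than the 95% limit of Dixon's test, which chance passes in about 1 group in 20. All 14 were in untreated skin. Untreated replicate 1 was the high sample for Apob (gap over range 0.918) and Alb (0.847). Untreated replicate 2 was the high sample for the melanocyte score (0.846) and the low sample in the other 11. Those were the scores of the sebaceous gland (0.862), dendritic epidermal T cells (0.888), neutrophils (0.834), B and plasma cells (0.853), prostaglandin and leukotriene receptors (0.85), cytosolic ribosomal proteins (0.912), NRF2 response (0.878) and unfolded protein and heat shock (0.865), and the genes S100a9 (0.886), Skint10 (0.836) and Skint9 (0.909). For these results the fit without untreated replicates 1 and 2 kept the direction of the gene's or list median's log2 fold change.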

How the results depend on the processing

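Under every alternative tried the number of genes called stayed within 1.5 times the 12085 of the reported fit, and so did the counts higher and lower. It was 12607 with the DESeq2 test, 14146 with limma-voom, 13786 of 38169 genes without the count filter, and between 11062 and 13944 when 1 sample was left out. With the replicate block 11246 genes were called, but deviations of same-numbered samples correlated only at 0.0229, -0.00799, 0.0107 and 0.0121 for numbers 1 to 4, so the numbers were not read as pairs. Of 290 named genes tested, 247 were called, and 208 of these kept the call under every alternative that gave a value. With untreated replicates 1 and 2 both left out 3 lost it, with the replicate block 12, under upper-quartile scaling 13, under library size alone 16, and 0 to 20 when 1 sample was left out, most without treated replicates 4 (20), 3 (19) and 2 (16). The number of called members moved by over 1.5 times in at most 6 of 45 lists under any alternative, among them the hair, adipocyte, macrophage, interferon and ribosomal lists. The losses under scaling were mostly small rises, Egfr, Erbb2 and Hras among them. Cps1, at -0.32 and not called, was the 1 named gene called with the opposite sign elsewhere. It ranged from -0.71 to 2.94 when 1 sample was left out, the latter without untreated replicate 1, and was 4.0 without untreated replicates 1 and 2, and it was positive but not called with limma-voom (1.20) and with the block (1.90). DESeq2 adjusted p-values set to NA were not counted as lost calls. Of 45 list medians 38 kept their sign under every alternative, that of the aryl hydrocarbon receptor list reaching 0. The 7 others were no more than 0.29 from 0 in the reported fit and belong to the protein kinase C, basal epidermis, collagen, erythrocyte, B cell, respiration and p53 lists. Depth limits genes whose untreated level is near 3 counts, up to 0.153 CPM without TMM factors, among them Klk14, Spink12, Sprr2i, Il19 and Il24.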

Other observations

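Beyond the listed genes, most long noncoding RNA genes and unclassified transcripts fell. Of 2185 long noncoding RNA genes tested 1335 were lower in treated skin (61.1%) and 145 higher, with a median log2 fold change of -1.25, and of 1111 unclassified transcripts marked for experimental testing 919 were lower (82.7%) and 23 higher, with a median of -2.01. Protein-coding genes divided into 4815 higher and 4283 lower of 15205 (28.2% lower), with a median of 0.03, and of 704 processed pseudogenes 29% were lower, with a median of 0.07. Long noncoding RNA took 1.24%, 3.14%, 1.45% and 1.36% of counts in untreated replicates 1 to 4 and 0.669% to 0.724% in treated samples, so untreated replicate 2 was highest and no sample overlapped. Without untreated replicates 1 and 2 the medians were -0.91 for long noncoding RNA and -1.56 for the unclassified transcripts.

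Among protein-coding genes the direction also went with the level. Of 6501 genes with an average log2 CPM of 5 or more 43.7% were higher and 17% lower, and of 1673 genes below 1, 10.9% were higher and 44.2% lower.

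Protein-coding genes of the mitochondrial genome fell for 10 of 11 tested, with a median of -1.05, against a median of 0.12 for the nuclear genes of respiration. Without untreated replicates 1 and 2, 7 fell and the median was -0.58. mt-Co1, a subunit of cytochrome oxidase, was at 12741.2, 7578.0, 11060.6 and 8162.7 CPM in untreated and 4670.3, 5185.3, 4952.9 and 4259.7 CPM in treated skin, without overlap. Together these 11 genes took 1.25% to 2.07% of counts in untreated and 0.619% to 0.77% in treated samples. Skeletal muscle, whose genes fell by a median of 2.10, is rich in mitochondria, and its part in this difference was not tested.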
